A study of Mus musculus with 18 samples.

Results

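The major urinary protein (Mup) family is described here in 18 mouse liver RNA-seq libraries, 3 in each of 6 groups. Members were all rows of the deposited count table whose symbol is Mup followed by a number or Mup-ps followed by a number, which gave 48 of 52636 rows. Of these, 21 are coding genes (Mup1 to Mup21) and 27 are pseudogenes, in GENCODE M21 (mm10). All but 1 lie on chromosome 4, between positions 59956804 and 62150863, and Mup-ps22 is on chromosome 11. A filter on low counts left 23 members for testing, 16 coding genes and 7 pseudogenes, among 13958 tested genes.

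Major urinary proteins are small lipocalins that hepatocytes secrete into the blood and the kidney passes into urine, where they carry volatile pheromones and act as scent signals themselves. In the mouse liver they are known as male-biased genes that follow the pulsatile male pattern of growth hormone through STAT5B, with further control by androgens, glucocorticoids and thyroid hormone. Mup20 encodes darcin, a male pheromone protein. The Mup locus is a tandem array of recent duplicates, so the copies are close in sequence.

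Mice of the H groups had the Hnf4atm1.1Gonz conditional allele, those of the BH groups had Arntltm1Weit in addition, and both lines carry Albtm1(cre/ERT2)Mtz, a tamoxifen-activated Cre recombinase expressed from the albumin gene in hepatocytes. Hnf4a encodes a nuclear receptor of hepatocytes, and Arntl (Bmal1) an activator of the circadian clock. H-WT, H-KO, BH-WT and BH-KO livers were taken at 10 weeks. BH-HF-WT and BH-HF-KO livers were taken at 45 weeks, with high-fat feeding begun at 10 weeks and kept up for 35 weeks, so age and diet cannot be told apart in them. Every group, WT included, carries a tamoxifen label (10 mg/mL, on 5 days at 8 weeks), and WT and KO share 1 strain label within a line, and the labels do not say how a WT mouse differed. All livers were taken at ZT8.

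Several libraries stood apart and bear on every result. Total counts were 6846471 to 9816124 per library. Hnf4a was at 494 to 866 CPM (the count scaled by library size and TMM factor) in the KO libraries of the 10-week groups and 580 to 888 CPM in their WT libraries, and a count over the whole gene does not separate deleted exons. Arntl was at 17.4, 22.3 and 24.01 CPM in BH-KO and at 0.420, 0.734 and 0.798 CPM in BH-WT, so its count was higher, not lower, in BH-KO. Further genes were named after their values were seen. Apoa2, a gene known to depend on HNF4A, was at 118, 121 and 149 CPM in H-KO and at 4457, 4556 and 6174 CPM in H-WT. In BH-KO, Apoa2 was at 7285, 323 and 347 CPM, and Otc, another such gene, at 345, 19.6 and 29.6 CPM, so the library labelled BH-KO replicate 1 did not have the low level of the other two. Dbp, a direct target of ARNTL, was at 2.67, 6.74 and 8.09 CPM in the same BH-KO libraries and at 116 to 170 CPM in BH-WT, low in all 3. In the libraries labelled BH-HF-KO neither was low (Apoa2 3522 to 4357 CPM, Dbp 91.9 to 119 CPM) and Arntl was at 0.884 to 2.53 CPM, which goes against their label and bears on each direction drawn from them. Alb, however, was lower in them, at 29830 to 41310 CPM against 71780 to 90690 CPM in BH-HF-WT, a difference that did not pass. In H-WT replicate 3, Xist was at 1082 CPM and Ddx3y at 5.73 CPM, as in a female, and in each of the other libraries Xist was at most 3.89 CPM, as in males. The series describes its replicates as biological.

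The copies are hard to tell apart by their reads. Coding sequences of the 210 pairs of coding members were 84.6% to 100% identical, with a median of 96.7%, and Mup9 and Mup18 had 0 mismatches over the 540 bases aligned. Windows of 50 bases of the annotated transcripts were compared among the 48 members only, so shares of unique windows are upper limits. Of all windows, 86.7% were unique to the gene for Mup3, 80.7% for Mup21 and 49.9% for Mup20. The share was 22.2% for Mup11, 21.9% for Mup17, 16% for Mup14, 13.3% for Mup7 and 8.29% for Mup16, and no window of Mup15 or Mup19 was unique. Reads that match several copies may have been dropped or split, and neither the read counter nor its handling of such reads was stated. Among tested members Mup-ps20 had the highest share, 97.65%, and some untested copies (Mup6, Mup4, Mup5) were above 80.7% as well. Levels of single copies are more uncertain the fewer unique windows they have, and the family sum, the summed count of all 48 rows, is given beside them.

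RefSeq's promoter table (GRCm38.p6) held 14 of the 21 coding members. Mup1, Mup5, Mup8, Mup12, Mup13, Mup16 and Mup20 are named only. The stretches shown align around 8 bases, in capitals. In Mup7, Mup11 and Mup17 these match TTATGNAA, a loose form of the D-box that allows any base at N. They differ in Mup3 and Mup21. DBP and related factors bind the D-box, and whether they bind TTATGAAA was not tested.

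Mup7: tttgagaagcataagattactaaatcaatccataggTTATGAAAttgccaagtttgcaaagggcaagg
Mup11: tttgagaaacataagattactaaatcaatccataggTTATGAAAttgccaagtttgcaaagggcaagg
Mup17: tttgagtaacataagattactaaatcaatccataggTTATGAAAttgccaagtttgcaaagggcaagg
Mup3: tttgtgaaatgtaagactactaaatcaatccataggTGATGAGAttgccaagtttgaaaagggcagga
Mup21: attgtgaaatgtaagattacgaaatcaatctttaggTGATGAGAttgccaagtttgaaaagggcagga

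These stretches lie on the minus strand at chr4:60070513-60070580 (Mup7), chr4:60662539-60662606 (Mup11), chr4:61595999-61596066 (Mup17), chr4:62087435-62087502 (Mup3) and chr4:62150953-62151020 (Mup21). Counted from 1 at the 5′ end of the capitals, with the Mup7 base first, Mup3 and Mup21 carry T2G and A7G, as does Mup4, and Mup6 carries T2G. On either strand, TTATGNAA was found in 10 of the 14 member promoters (Mup2, Mup7, Mup9, Mup10, Mup11, Mup14, Mup15, Mup17, Mup18 and Mup19) and in 3.39% of 32544 promoters of the same length. In each of the 10 the match read TTATGAAA. TGTTCT, a short steroid receptor motif, was found in Mup3 and Mup21 and in 18.9% of all promoters, and TATAAA in Mup4 and Mup6 and in 13.6%. The STAT5-type TTCNNNGAA, the HNF4-type CAAAGTCCA, the E-box CACGTG and the HNF1-type GTTAATNAT were in none of the 14 windows and in 8.33%, 0.479%, 7.17% and 0.808% of all promoters. A match is a description of letters in this window and no evidence of binding.

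The family sum spanned a wide range between groups. It was 7601, 6344 and 4055 CPM in H-WT and 77.2, 119 and 207 CPM in H-KO. In BH-WT it was 8789, 1164 and 9051 CPM, and in BH-KO 6168, 180 and 99.9 CPM. It reached 21570, 16420 and 25820 CPM in BH-HF-WT and 29510, 26030 and 26160 CPM in the libraries labelled BH-HF-KO. H-KO lay below every H-WT library, the BH groups overlapped through BH-KO replicate 1 and BH-WT replicate 2, and all 6 libraries at 45 weeks lay above all 12 at 10 weeks. The rows together held from 0.0102% of a library's counts (H-KO replicate 1) to 2.65% (BH-HF-KO replicate 1). In bulk liver, fewer hepatocytes and less RNA per hepatocyte cannot be told apart. The sum of 13 hepatocyte markers was 108700 to 118300 CPM in H-WT and 31710 to 44210 CPM in H-KO, and that of 6 cholangiocyte markers 33.1 to 58.7 and 110 to 171 CPM. Alb held most of the hepatocyte sum in H-WT. Without it the sum of the other 12 was 35880 to 37170 CPM in H-WT and 21890 to 31460 CPM in H-KO, and 8 of the 13 markers fell, with a median log2 fold change of -0.92. Neither list had a marker at 0 in any group, and their part in the Mup result was not tested.

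**Figure D1:**
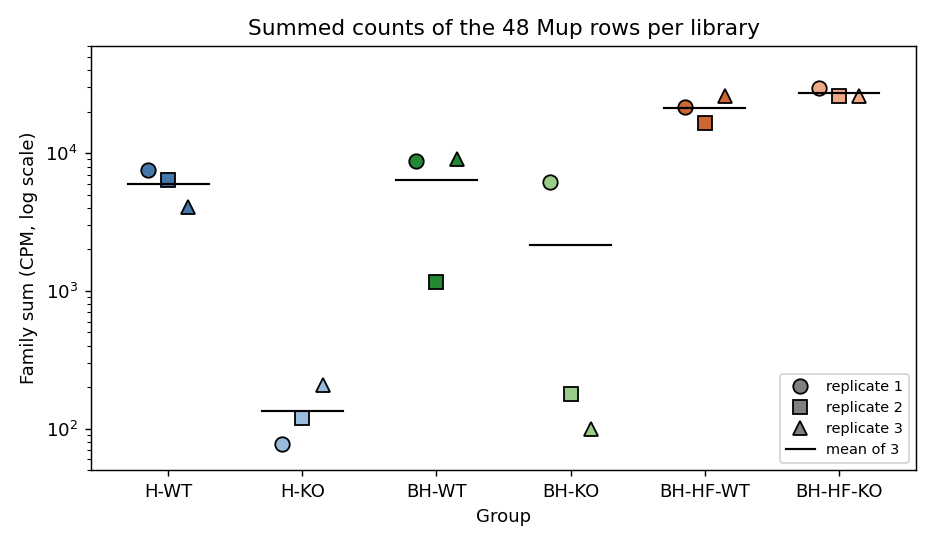
Family sum of the 48 Mup rows in CPM (log axis) for each library, by group; symbols mark the replicate and bars the mean of 3. H-KO sits between 77.2 and 207 CPM, BH-KO replicate 1 stands at 6168 CPM above the other BH-KO libraries, and the 45-week libraries are at 16420 CPM or more.

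A few copies made up most of the Mup counts. Mup3 held 48.02% of the family count over all libraries, Mup7 21.7% and Mup20 17.7%, together 87.4%. Per kilobase of exon, the mean level over all libraries was 4735 CPM for Mup3, 2215 for Mup7, 1982 for Mup20, 305 for Mup14, 226 for Mup11, 206 for Mup17, 98.4 for Mup21 and 69.8 for Mup16. Of the family count, Mup15 held 0.523%, Mup12 0.508% and Mup1 0.492%, and each remaining tested member held at most 0.157% (Mup18).

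The 25 untested members gave 522 counts in all, at most 78 in 1 row. Those with at least 10 counts were Mup13 (78), Mup10 (74), Mup-ps10 (58), Mup6 (54), Mup-ps8 (48), Mup-ps15 (39), Mup-ps4 (28), Mup-ps18 (26), Mup-ps22 (25), Mup-ps2 (16), Mup-ps21 (11), Mup-ps1 (11), Mup5 (11) and Mup-ps19 (10). A further 6 had 1 to 9 counts, and 5 pseudogenes had none. All 58 counts of Mup-ps10 were in the female H-WT replicate 3.

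The make-up of the family differed by age and diet setting. Mup3 was 63.6% to 93.1% of the family sum in the 12 libraries at 10 weeks and 29.15% to 49.2% in the 6 at 45 weeks. Mup7 was 0.32% to 20.6% and 10.9% to 28.4%, and Mup20 0.98% to 15.2% and 13.97% to 30.25%. Mup14 was at most 2.82% at 10 weeks and at least 3.91% at 45 weeks, without overlap, as for Mup3. H-WT replicate 3 differed from the rest of the 10-week libraries, with 10.99% Mup17, 6.02% in the coding members outside the 8 most abundant and 3.46% in pseudogenes.

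**Figure D2:**
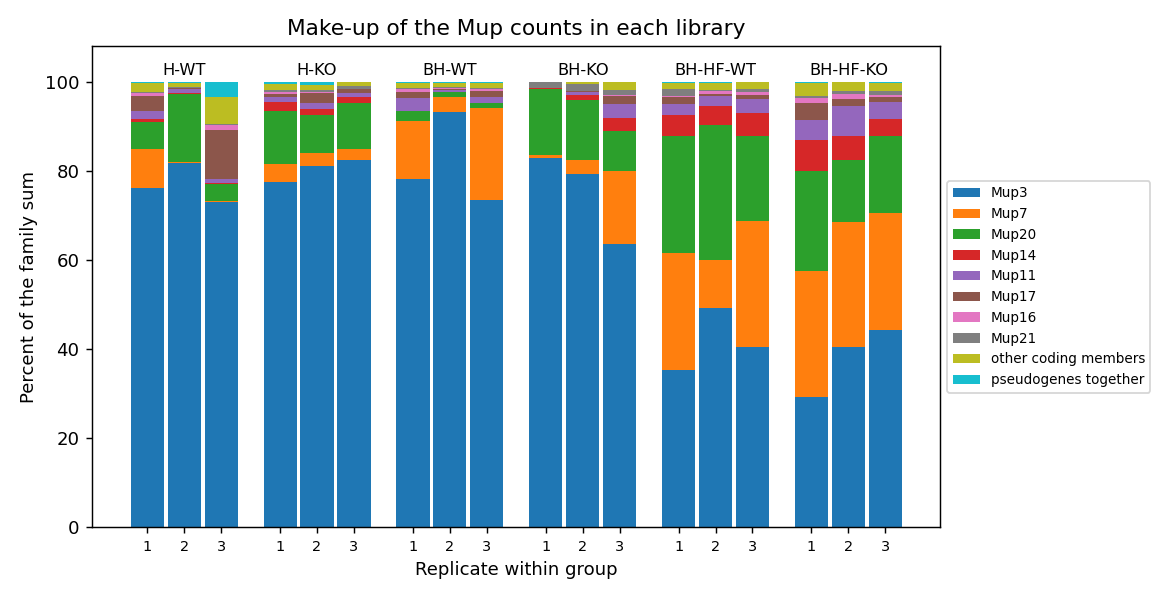
Stacked bars of the percent of the family sum held by each of the 8 most abundant members, the other coding members and the pseudogenes, for each library. Mup3 takes 63.6% to 93.1% at 10 weeks and 29.15% to 49.2% in the BH-HF libraries, where Mup7, Mup20 and Mup14 take larger shares.

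Livers labelled H-KO had far fewer counts of nearly every tested copy than H-WT. Mup3 (ENSMUSG00000066154, chromosome 4, 62083476 to 62087342, minus strand), the most abundant copy, was at 5788, 5179 and 2958 CPM in H-WT and at 59.8, 96.6 and 171 CPM in H-KO. It fell by 5.41 ± 1.34 on the log2 scale (SE, adjusted p = 0.00677, the quasi-likelihood test of edgeR, p-values adjusted by Benjamini and Hochberg's method over all tested genes, as throughout). Mup20 (darcin, ENSMUSG00000078672, chromosome 4, 62050234 to 62054158) was at 470, 966 and 150 CPM in H-WT and at 9.21, 10.0 and 21.4 CPM in H-KO. The groups did not overlap, and Mup20 fell by 5.28 ± 1.51 (adjusted p = 0.015). Without H-KO replicate 1 or replicate 2 the adjusted p was 0.0598 or 0.0589.

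Mup7 (ENSMUSG00000073842, chromosome 4, 60066469 to 60070475) varied most among the H-WT libraries, at 662, 25.8 and 12.9 CPM, against 3.21, 3.56 and 5.15 CPM in H-KO. It fell by 5.87 ± 1.6 (adjusted p = 0.0119). This rests on H-WT replicate 1, without which the log2 fold change was -2.28 (adjusted p = 0.142), and with the H groups alone in the fit the adjusted p was 0.0925. Mup11 (ENSMUSG00000073834, chromosome 4, 60658466 to 60662411) was at 148, 45.6 and 33.0 CPM in H-WT and 0.801, 1.62 and 2.04 CPM in H-KO, a fall of 5.65 ± 1.12 (adjusted p = 0.00168).

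Mup14 (ENSMUSG00000073830, chromosome 4, 61300023 to 61304000) was at 37.03, 15.03 and 10.8 CPM in H-WT and 1.502, 1.83 and 2.62 CPM in H-KO, and fell by 3.38 ± 0.78 (adjusted p = 0.00435). Mup17 (ENSMUSG00000096688, chromosome 4, 61591929 to 61595871) was at 249, 15.7 and 446 CPM in H-WT and 0.601, 2.59 and 1.56 CPM in H-KO, a fall of 7.22 ± 1.53 (adjusted p = 0.00263). Mup16 (ENSMUSG00000078675, chromosome 4, 61515592 to 61519531) was at 56.8, 7.89 and 53.1 CPM in H-WT and at 0.301, 0.324 and 0.292 CPM in H-KO, which is 3 counts in each library. H-WT replicate 2 was the low library for Mup17 and Mup16 and the high one for Mup20, so these copies took different orders among the H-WT livers. Mup16 fell by 6.94 ± 1.28 (adjusted p = 0.00112).

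Mup21 (ENSMUSG00000066153, chromosome 4, 62147932 to 62150863), the last copy of the cluster, was at 11.01, 8.75 and 7.55 CPM in H-WT and 0.401, 0.432 and 0.972 CPM in H-KO. Those groups did not overlap, but the difference of -3.87 ± 1.65 missed the threshold (adjusted p = 0.0847) against the spread of all 6 groups. With the H groups alone in the fit it passed (adjusted p = 4.24e-05).

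In all, 18 of the 23 tested members fell, where 19.1% of all tested genes fell. The 11 members with more than 3 counts in both groups had log2 fold changes from -7.22 (Mup17) to -3.38 (Mup14). The median over all 23 fitted values was -5.92, against -0.0 over all genes, and -5.87 over the 21 that have a value once those with no H-KO count are set at the bound that 3 counts allow. Besides Mup21, the members that missed the threshold were Mup9 (adjusted p = 0.0511), Mup8, Mup-ps6 and Mup-ps20. Every H-KO library was below every H-WT library for 21 of 23 members, a pattern seen for 25.9% of all genes. Mup8, Mup9, Mup-ps6, Mup-ps14 and Mup-ps20 had no count in H-KO. With 3 counts over the group as the floor, Mup9 was at least 19.4-fold and Mup-ps14 at least 37.6-fold lower, and without H-WT replicate 3, which held 70 of the 87 Mup-ps14 counts, at least 13.8-fold and 10.7-fold. Mup8 and Mup-ps20 had 3 counts and 1 count in H-WT, too few for a fold. The family sum fell by 5.48 ± 1.32 on the log2 scale, and by 5.70 without H-WT replicate 3.

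**Figure D3:**
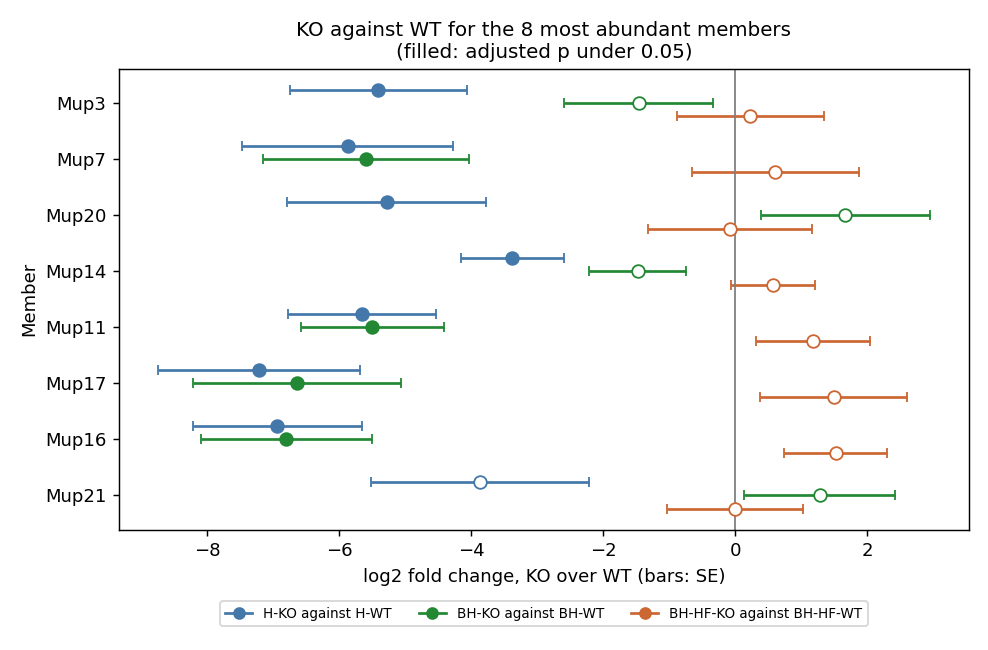
Log2 fold change (KO over WT) with SE for the 8 most abundant members in 3 comparisons; filled points passed at an adjusted p under 0.05. In H-KO the values run from -7.22 (Mup17) to -3.38 (Mup14), in BH-KO Mup20 (1.67) and Mup21 (1.28) lie above 0, and in the libraries labelled BH-HF-KO no member passed.

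In BH-KO the copies split. Of the 23 tested members 10 fell, where 14.2% of all tested genes fell: Mup1, Mup2, Mup7, Mup11, Mup12, Mup15, Mup16, Mup17, Mup-ps7 and Mup-ps13. In the fit of the BH-WT and BH-KO libraries alone 2 passed, and without BH-KO replicate 1 or replicate 2 the count was 11 or 6. For 9 members all BH-KO libraries were below all BH-WT libraries, as for 16.8% of genes. Beside this, the hepatocyte marker sum was 43190 to 100300 CPM in BH-KO and 113000 to 143900 CPM in BH-WT, the cholangiocyte sum 103 to 343 and 39.9 to 77.2 CPM, and the sum of 10 macrophage markers 53.9 to 334 and 243.5 to 1118 CPM, and their part was not tested. Of the 13 hepatocyte markers 2 fell and 1 rose in BH-KO (median -0.37), and without Alb their sum was 29410 to 58130 CPM in BH-KO and 39860 to 46380 CPM in BH-WT. Of the 5 tested cholangiocyte markers 2 rose (Spp1 and Sox9) and 0 fell, but the median log2 fold change was -1.08.

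Of those that fell, Mup2, Mup11, Mup15, Mup16, Mup17 and Mup-ps13 were below every BH-WT library in all 3 BH-KO libraries, and Mup1, Mup7, Mup12 and Mup-ps7 overlapped. Mup11 was at 245, 4.77 and 106 CPM in BH-WT and at 3.12, 1.52 and 3.26 CPM in BH-KO, a fall of 5.50 ± 1.08 (adjusted p = 0.00275). Mup17 was at 116, 3.06 and 120 CPM in BH-WT and 0.297, 0.0949 and 1.76 CPM in BH-KO, and fell by 6.64 ± 1.58 (adjusted p = 0.00804). For both, BH-WT replicate 2 was the low control library, close to the KO libraries. Mup16 was at 59.9, 2.32 and 49.1 CPM in BH-WT and 0.593, 0.190 and 0.264 CPM in BH-KO, a fall of 6.80 ± 1.29 (adjusted p = 0.00219).

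Mup7 was at 1154, 41.6 and 1861 CPM in BH-WT and 41.8, 5.51 and 16.2 CPM in BH-KO, and fell by 5.60 ± 1.56 (adjusted p = 0.0173). Its BH-WT replicate 2 and BH-KO replicate 1 had about the same level. The call was lost without BH-KO replicate 2 (adjusted p = 0.0697) or replicate 3 (adjusted p = 0.0667).

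Mup3, Mup20 and Mup21 were high in BH-KO replicate 1. Mup3 was at 6863, 1083 and 6648 CPM in BH-WT and at 5107, 143 and 63.6 CPM in BH-KO (log2 fold change -1.46 ± 1.13, adjusted p = 0.351). Mup20 was at 188, 11.4 and 98.8 CPM in BH-WT and 916, 24.3 and 9.06 CPM in BH-KO (1.67 ± 1.28, adjusted p = 0.344). Mup21 was at 14.7, 2.08 and 18.2 CPM in BH-WT and 82.6, 2.85 and 1.06 CPM in BH-KO (1.28 ± 1.14, adjusted p = 0.42). BH-KO replicate 1 was thus within the BH-WT range for Mup3 and above it for Mup20 and Mup21, and for Mup3 the other 2 BH-KO libraries were below all of BH-WT.

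Without BH-KO replicate 1, Mup3 fell by 5.56 (adjusted p = 0.000152). The log2 fold changes of Mup20 and Mup21 turned to -2.58 (adjusted p = 0.0594) and -2.56 (adjusted p = 0.056). The family sum was -1.56 ± 1.11 with all libraries and -5.50 without this one. Leaving it out together with BH-WT replicate 2, an alternative chosen after seeing the data, gave 15 members passing and a family sum of -6.0. Mup14 was at 14.4, 1.71 and 18.5 CPM in BH-WT and 8.16, 1.80 and 2.82 CPM in BH-KO, with overlap (-1.48 ± 0.74, adjusted p = 0.145).

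**Figure D4:**
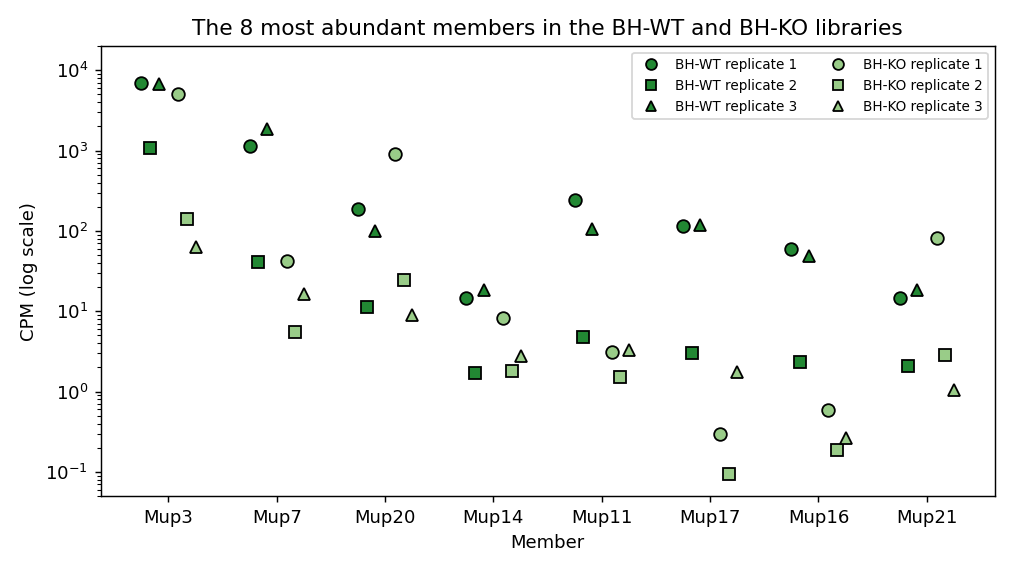
CPM (log axis) of the 8 most abundant members in each BH-WT and BH-KO library, with symbols for the replicate. BH-KO replicate 1 lies at 5107 CPM for Mup3 and 916 CPM for Mup20, among or above BH-WT, and at 3.12 CPM for Mup11 and 0.297 CPM for Mup17, below all BH-WT libraries.

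The split in BH-KO replicate 1 can be set beside the promoter sequences shown above. Of the 9 tested members whose promoter holds TTATGNAA, 5 fell in BH-KO and 8 in H-KO, and of the 2 that lack it, 0 and 1, where 14.2% and 19.1% of all genes fell. The 0 rests on BH-KO replicate 1, without which the log2 fold change in BH-KO was -5.56 for Mup3 and -2.56 for Mup21. In H-KO, Mup21 missed the threshold at -3.87 although the H groups did not overlap, and it passed with those groups alone in the fit. Of the 9, 6 were below the whole BH-WT range in this library, 3 within it and 0 above, at 0.0% to 70.7% of the BH-WT mean. The 70.7% was Mup14, which did not pass in BH-KO. Its stretch, not shown above, has the same 68 bases as that of Mup11, which was at 2.63% and fell. Mup9 and Mup19, at 0.0%, had only 18 counts each in BH-WT. Mup7, at 41.8 CPM, was just within the BH-WT range, whose minimum of 41.6 CPM was in BH-WT replicate 2. Of all tested genes, 32.5% were below that range in this library and 33.0% above it. Mup3 and Mup21, which lack TTATGNAA, were at 105% and 709% of the BH-WT mean. Their coding sequences were 96.3% identical, against 86.0% for Mup3 and Mup7 and 98.9% for Mup7 and Mup11. The grouping by motif thus cannot be told apart from likeness of the copies in sequence. For the 5 tested coding members with no promoter in the table, the range was 0.0% to 923%, with Mup20 highest. The library and the grouping were both looked at after the values were known, no test was made, and 1 library is no replicate of a genotype. Dbp, whose product binds the D-box, was low in all 3 BH-KO libraries. Neither its binding to TTATGAAA nor its part in these levels was tested.

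BH-WT replicate 2 was the lowest of its group for 21 of the 23 tested members, with a family sum of 1164 CPM against a mean of 8920 CPM in the other 2. Beside it, the library was the highest of its group for 19 of 32 tested female-biased genes and the lowest for 5. Examples are A1bg (91.3 CPM against 0.560 and 4.95 CPM) and Cyp3a16 (319 against 0.280 and 16.3 CPM), named after their values were seen. It was also the highest for 10 of 10 macrophage markers, such as Csf1r (170 against 27.3 and 90.1 CPM). Xist was at 0.245 CPM and Ddx3y at 115 CPM in that library, the male pattern. Whether these move with the Mup level was not tested. How often this library was the lowest or highest of its group over all tested genes is not given here.

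The female H-WT replicate 3 was the highest of its group for 10 of the 23 members and the lowest for another 10. It was low for Mup7 and Mup20 and high for Mup17, Mup15 (158 CPM against 92.1 and 4.56), Mup18 (56.9 against 16.1 and 2.46), Mup-ps16 (67.1 against 5.71 and 7.02), Mup-ps12 (25.7 against 1.73 and 0.739) and Mup-ps14 (9.79 against 1.73 and 0.493). Sex rests on this single library, so no test of it was made. Among the same 23 members, H-WT replicate 1 was the highest for 8 and the lowest for 4, and H-WT replicate 2 for 5 and 8. Such counts over all tested genes are not given here.

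The difference between the KO effects in the BH and H lines was not past the threshold for any of the 23 members by edgeR, where 6.09% of all genes passed. At an unadjusted p under 0.05 there were 3, Mup20 (6.96 ± 1.95, adjusted p = 0.0516), Mup21 (5.16 ± 2.02, adjusted p = 0.143) and Mup3 (3.95 ± 1.63, adjusted p = 0.161), and DESeq2 called 3. A positive value means that the log2 fold change was higher in BH, where Mup20 and Mup21 were above 0. All of these rest on BH-KO replicate 1, without which Mup20 was at 2.71, Mup21 at 1.32 and Mup3 at -0.15. The family sum difference was 3.92 ± 1.6, and -0.02 without that library.

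In the 45-week livers no member passed between the libraries labelled BH-HF-KO and BH-HF-WT. Mup3 was at 8603, 10510 and 11600 CPM in the former and 7601, 8079 and 10470 CPM in the latter (log2 fold change 0.23 ± 1.11). Mup7 was at 8377, 7333 and 6862 against 5692, 1784 and 7303 CPM (0.61 ± 1.27), and Mup20 at 6583, 3637 and 4495 against 5625, 4966 and 4923 CPM (-0.08 ± 1.24). All 3 overlapped between the groups.

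Mup14 was at 2085, 1358 and 1022 CPM in the libraries labelled BH-HF-KO against 1020, 679 and 1305 CPM in BH-HF-WT (0.57 ± 0.64). Mup11, at 1297, 1749 and 990 against 570, 385 and 821 CPM, did not overlap (1.18 ± 0.86). Nor did Mup16, at 345, 295 and 155 against 52.4, 84.3 and 141 CPM (1.52 ± 0.78). Mup17 was at 1138, 423 and 271 against 328, 78.3 and 245 CPM (1.49 ± 1.12), and Mup21 at 137, 183 and 205 against 301, 49.9 and 174 CPM (0.00 ± 1.03).

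By edgeR 0 of 23 members passed, where 0.0% of all genes did, 0 had an unadjusted p under 0.05, and DESeq2 called 0. For 4 members (Mup11, Mup12, Mup15 and Mup16) every library labelled BH-HF-KO was above every BH-HF-WT library, as for 5.67% of genes. The family sum was higher by 0.36 ± 1.09 on the log2 scale. Alb, the albumin gene, was at 29830 to 41310 CPM in the libraries labelled BH-HF-KO and 71780 to 90690 CPM in BH-HF-WT.

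The KO effect differed between the BH-HF and BH settings for 8 members, where 3.45% of genes differed in that direction. These were Mup16 (8.32 ± 1.54, adjusted p = 0.00813), Mup17 (8.14 ± 1.94, adjusted p = 0.0271), Mup-ps13 (7.02 ± 1.11, adjusted p = 0.00276), Mup15 (6.81 ± 1.76), Mup-ps7 (6.76 ± 1.87), Mup11 (6.68 ± 1.37), Mup12 (5.59 ± 1.17) and Mup1 (5.36 ± 1.27). Positive values mean that the log2 fold change was higher in BH-HF than in BH. All 8 fell in BH-KO and were above 0 in BH-HF, from 0.43 (Mup-ps13) to 1.81 (Mup15), without passing there. Dbp, Apoa2 and Arntl go against the label of the BH-HF-KO libraries. The family sum difference was 1.92 ± 1.55. Mup3 (1.69 ± 1.58), Mup20 (-1.75 ± 1.78) and Mup21 (-1.28 ± 1.54) did not pass. Without BH-KO replicate 1, Mup3 passed at 5.8 (adjusted p = 0.000657), and Mup20 and Mup21 turned to 2.5 and 2.56 (adjusted p = 0.182 and 0.138). Mup-ps7 had 0 counts and Mup-ps13 had 3 in BH-KO, so the sizes of their differences depend on the prior count of the fit. The count was 3 to 11 when single libraries were left out, 4 with no filter on low counts and 13 by DESeq2. Mup17 lost its call without 8 of the 12 libraries, each left out in turn.

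Among controls, the older high-fat livers had higher levels of several copies than BH-WT. Mup14 rose from 11.6 ± 8.76 to 1001 ± 313 CPM (SD, n = 3; log2 fold change 6.45 ± 0.83, adjusted p = 0.00138), and the lowest BH-HF-WT library, at 679 CPM, was far above the highest BH-WT library, at 18.5 CPM. Mup20 rose from 99.3 ± 88.1 to 5171 ± 393 CPM (5.70 ± 1.53, adjusted p = 0.0408), a call lost when any of the 6 libraries was left out (adjusted p 0.0588 to 0.153). Mup1 (2.82 ± 0.73) and Mup12 (2.43 ± 0.67) rose as well. So did Mup-ps20, from 1 count in BH-WT to 130 in BH-HF-WT, and Mup8, from 3 counts to 96, for which the low BH-WT counts leave the fold imprecise.

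That made 6 of 23 members, where 2.79% of genes rose, and 15 members for which every BH-HF-WT library was above every BH-WT library, as for 15.7% of genes. All 23 log2 fold changes were above 0, with a median of 2.43 against -0.01 over all genes. Mup21 was at 301, 49.9 and 174 CPM against 14.7, 2.08 and 18.2 CPM (3.93 ± 1.2, adjusted p = 0.0644). Mup3 was at 8716 ± 1535 against 4865 ± 3276 CPM (0.84 ± 1.12, adjusted p = 0.705), and Mup7 at 4926 ± 2838 against 1019 ± 917 CPM (2.27 ± 1.33, adjusted p = 0.322). The family sum was higher by 1.75 ± 1.12. When single libraries were left out 3 or 4 members passed.

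BH-WT and H-WT, the controls of the 2 lines at 10 weeks, did not differ past the threshold in any member by edgeR (0 of 23, where 0.165% of genes passed). At an unadjusted p under 0.05 there were 4, and DESeq2 called 0. Mup3 gave 0.07 ± 1.11, Mup7 2.13 ± 1.32 and Mup20 -2.41 ± 1.32 on the log2 scale. Without H-WT replicate 1, the high H-WT library for Mup7, its value was 5.72 (adjusted p = 0.205). The lowest p belonged to Mup-ps16 (-3.62 ± 1.11, adjusted p = 0.339), which H-WT replicate 3 held high. The family sum differed by 0.08 ± 1.09.

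**Figure D5:**
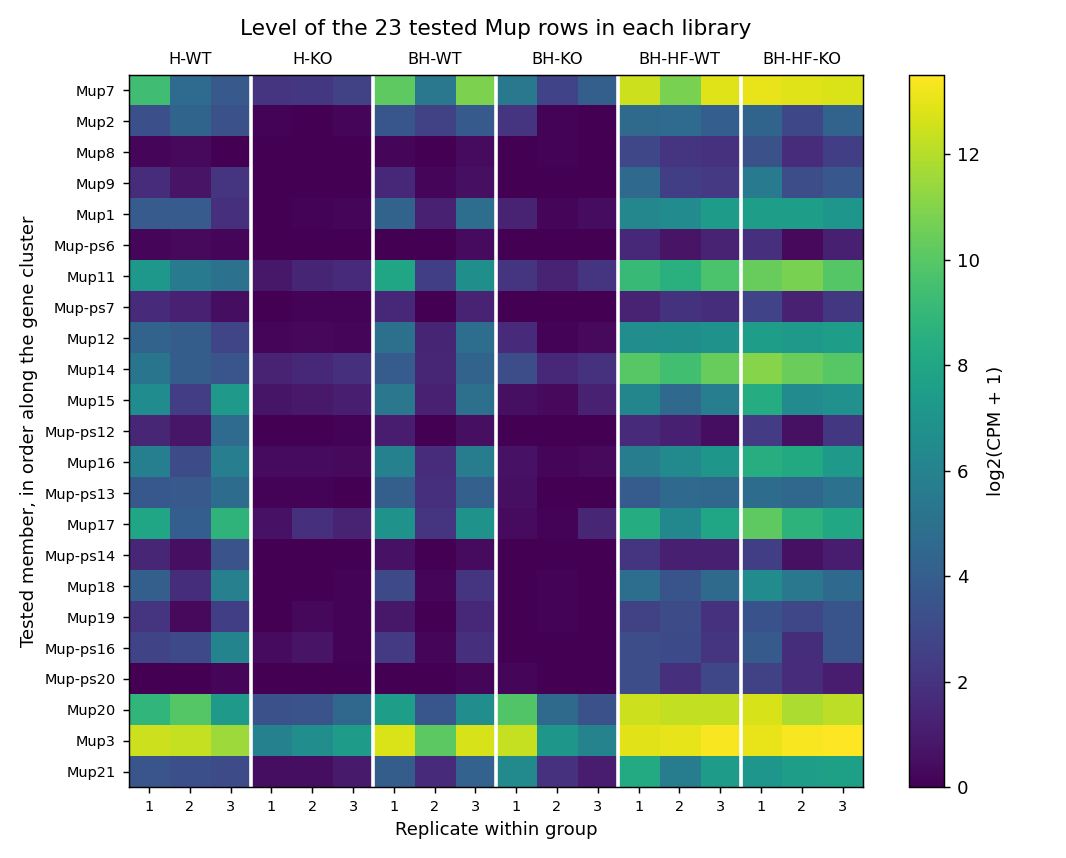
Heat map of log2(CPM + 1) for the 23 tested members, in order along the cluster, in the 18 libraries. Mup3 is the brightest row in H-KO (59.8 to 171 CPM), the BH-HF columns are brightest in Mup3, Mup7 and Mup20, and BH-KO replicate 1 is bright in Mup3 (5107 CPM) and Mup20 (916 CPM).

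Other sex-biased liver genes and their regulators were counted from lists. Among all tested genes, 19.1% fell and 15.8% rose in H-KO, 14.2% fell and 14.4% rose in BH-KO, and 4.21% fell and 2.79% rose in BH-HF-WT against BH-WT. Of 31 tested male-biased genes other than Mup, 19 fell in H-KO and 0 rose, with a median log2 fold change of -2.79. Serpina4-ps1, a serpin pseudogene, went from 152 ± 117 to 0.144 ± 0.249 CPM (-9.97 ± 1.68), and Cyp4a12a, a male-biased fatty acid hydroxylase, from 369 ± 294 to 1.38 ± 1.16 CPM (-8.02 ± 1.63). In BH-KO 1 of the 31 fell (Serpina4-ps1, -5.06 ± 1.23) and 1 rose (Elovl3, a fatty acid elongase, 4.67 ± 1.47). Elovl3 was at 171 CPM in BH-KO replicate 1 and at 6.74 and 1.06 CPM in the other 2. In the 45-week contrast 0 of the 31 passed, and 6 rose in BH-HF-WT against BH-WT, among them Hsd3b5, a steroid dehydrogenase (6.73 ± 1.45), and Cyp4a12b (5.86 ± 1.28).

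Of 32 tested female-biased genes, 10 fell and 3 rose in H-KO. The steroid-metabolizing genes Cyp17a1 (18.4 ± 20.2 to 356 ± 34.1 CPM) and Sult1e1 (0.269 ± 0.280 to 30.0 ± 11.7 CPM) rose, and the cytochromes Cyp2c69 (-7.83 ± 2.55) and Cyp2c40 (-5.92 ± 1.93) fell. Those 2 falls include the high level of H-WT replicate 3 (216 and 204 CPM against at most 7.56 CPM in the other 2). In BH-KO 7 fell and 4 rose, and in BH-HF-WT against BH-WT 14 fell and 0 rose, with a median of -4.31.

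Of 31 tested genes of growth hormone signalling and regulators of sex bias, 10 fell and 1 rose in H-KO. Igf1, the main growth hormone target of liver, fell from 922 ± 251 to 132 ± 20.98 CPM (-2.81 ± 0.58). Esr1, the oestrogen receptor, rose (1.13 ± 0.40). In BH-KO 7 fell and 1 rose. Igf1 was at 1363 CPM in BH-KO replicate 1 and at 202 and 195 CPM in the other 2, and Cebpa, a liver transcription factor, was at 87.8, 85.5 and 87.5 CPM (a fall of 2.20 ± 0.13). Cux2, a female-biased repressor, was at 0.133, 0.986 and 78.9 CPM in H-WT, 48.6, 67.5 and 91.1 CPM in H-KO, 55.2, 120 and 48.02 CPM in BH-WT, 2.67, 25.2 and 25.7 CPM in BH-KO, and at most 0.572 CPM in the 6 libraries at 45 weeks. In BH-HF-WT against BH-WT, Cux2 fell by 7.23 ± 1.75 and Prlr, the prolactin receptor, by 2.46 ± 0.34.

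Of 18 tested lipocalins and other plasma carriers, 6 fell and 3 rose in H-KO. Apom, a lipocalin of lipoproteins, fell by 4.39 ± 0.49 and Fabp1, a fatty acid carrier, by 4.86 ± 0.76, while Serpina7, the thyroxine carrier, rose by 3.32 ± 0.56 and Orm3, an acute phase lipocalin, by 3.19 ± 1.06. In BH-KO 4 fell and 2 rose, Apom by -2.28 ± 0.44 and Serpina7 by 3.12 ± 0.56.

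The genes whose log2(CPM + 1) followed the family sum most closely over the 18 libraries, of 9369 compared, were Nox4, an NADPH oxidase (Pearson r = 0.985), the carboxylesterases Ces3a (0.98) and Ces3b (0.979), the sulfotransferase Sult2a8 (0.98), the receptor subunit Il1rap (0.978) and Ghr, the growth hormone receptor (0.976). These values are a description over libraries that fall into groups. Ghr was at 717 to 873 CPM in H-WT, 176 to 228 CPM in H-KO, 988, 216 and 182 CPM in BH-KO and 970 to 1168 CPM at 45 weeks. In BH-WT, where BH-WT replicate 2 was low in Mup, it was at 668, 545 and 747 CPM. Nox4 was at 30.4 CPM in BH-KO replicate 1 and at 1.71 and 0.704 CPM in the other 2. Among the 8 abundant members, the closest pair was Mup16 and Mup11 (r = 0.972) and the least close was Mup21 and Mup17 (r = 0.713).

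A neighbouring row outside the naming rule, Gm21320, which GENCODE M21 calls Mup22, was at 151, 124 and 109 CPM in H-WT, 2.003, 1.94 and 4.76 CPM in H-KO, 167, 44.2 and 140 CPM in BH-WT, and 41.8, 2.28 and 1.06 CPM in BH-KO. With it added, the family sum differed by -5.48 in H-KO and -1.58 in BH-KO. At 45 weeks it was at 144 to 194 CPM in BH-HF-WT and 153 to 247 CPM in the libraries labelled BH-HF-KO.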

How the data were processed

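RNA-seq of 18 mouse livers was analysed, 3 in each of 6 groups taken from the labels. The values are raw read counts per gene as deposited by the authors; per the submitters' processing notes, STAR 2.6 and mm10 were used, and the counter, annotation and strand setting were not stated. Of 52636 rows, 22756 held no count and 13958 passed edgeR's filterByExpr (minimum count 10). Counts were fitted in edgeR 4.0.16 (R 4.3.3) with TMM factors, all 18 libraries, one mean per group and 12 residual degrees of freedom, and tested by quasi-likelihood; adjusted p under 0.05 passed. Levels are CPM. The family sum was fitted as 1 added row, with no p. Scripts were tested on simulated data with the same dispersion for every gene, which does not cover rows as variable as the Mup rows. Per-library floors are 3 counts, and floors and intervals cover counting error only.

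The 8 members with the highest mean CPM are given per library and the others by groups or counts; from each list up to 4 genes per comparison, by largest change, plus the 6 genes most correlated with the family sum. Members and lists were chosen with earlier results of these data known. Identity and windows used GENCODE M21 and promoters RefSeq's table. Alternatives were other scalings, filters, DESeq2 1.42.0, a replicate block, fits of the compared groups alone, and each library left out. In the groups compared, same-numbered libraries did not deviate together, so the block is reported only with the alternatives.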

Additional observations from a re-analysis of the deposited data

Results flagged for a closer look

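The KO effect in BH-HF differed from that in BH, by the interaction term of the edgeR fit, for 8 members. On the log2 scale the differences were 8.32 for Mup16, 8.14 for Mup17, 7.02 for Mup-ps13, 6.81 for Mup15, 6.76 for Mup-ps7, 6.68 for Mup11, 5.59 for Mup12 and 5.36 for Mup1. Mup-ps7 and Mup-ps13 had 0 and 3 counts in BH-KO, so their sizes depend on the prior count. Each was a fall in BH-KO set against no passing change in the libraries labelled BH-HF-KO, in which Dbp and Apoa2 were at control levels. Age and diet cannot be told apart from this difference.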

How the results depend on the processing

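In H-KO against H-WT, 16 to 19 members passed without single libraries, with a family sum of -5.94 to -5.2. In BH-KO against BH-WT the count was 2 in a fit of those groups alone, 6 to 13 without single libraries and 15 without BH-KO replicate 1 and BH-WT replicate 2. The family sum then was -5.5 to -1.0 without single libraries and -6.0 without that pair, Mup20 -2.58 to 2.52 and -3.11, and Mup21 -2.56 to 1.87 and -3.09. In BH-HF, Mup20 ran from -0.35 to 0.1.

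For the BH minus H difference, DESeq2 called 3 members and single omissions gave 0 to 1. Ranges over single omissions, with the value without the pair, were -0.02 to 4.48 and -0.52 for the family sum, -0.15 to 4.52 and -0.62 for Mup3, -3.32 to 1.04 and -1.24 for Mup7, -0.78 to 1.26 and -0.53 for Mup11, and -0.42 to 0.69 and -0.88 for Mup16. Mup17 ran from -1.47 to 1.14, Mup20 from 2.71 to 7.81 and Mup21 from 1.32 to 5.74.

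For the BH-HF minus BH difference, 4 members passed with no filter, 13 by DESeq2, 3 to 11 without single libraries and 15 without the pair. The family sum was 1.36 to 5.86 and 6.36, Mup3 1.13 to 5.8 and 6.27, Mup20 -2.6 to 2.5 and 3.04, and Mup21 -1.87 to 2.56 and 3.09.

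For BH-WT against H-WT, single omissions gave -0.26 to 0.54 for Mup3, 1.36 to 5.72 for Mup7, -0.46 to 1.59 for Mup11, -0.63 to 0.48 for Mup16 (0.48 without the pair) and -0.14 to 0.85 for Mup21. For BH-HF-WT against BH-WT, 3 to 4 members passed without single libraries, and 7 without the pair.

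Within the 5 pairs of groups compared, same-numbered libraries did not deviate together (r -0.238 to 0.056), so the numbers were not taken to pair them; over all 45 same-numbered pairs of libraries r reached 0.128 and was over 0.1 in 3. With a replicate block 19, 12, 0, 0, 8, 0 and 6 members passed, in the order H-KO, BH-KO, BH-HF-KO, BH minus H, BH-HF minus BH, BH-WT against H-WT and BH-HF-WT against BH-WT. Under the block Mup7 turned to -0.61 in BH minus H and Mup3 to -0.16 in BH-WT against H-WT. Upper-quartile scaling shifted the median of all genes by 0.15 in H-KO. Beyond the omissions of libraries, the causes were not tested. Copies with few unique windows, and 3 libraries a group, limit all values.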
